A study of Mus musculus with 24 samples.

Results

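Among the 100 bp tiles of the mouse genome that were measured in liver, brain and heart alike, a small set was more methylated in brain than in both other tissues. A tile entered the set when the mean level over the brain libraries was at least 0.3 above the liver mean and at least 0.3 above the heart mean, and the liver and heart means lay within 0.2 of each other. The rule was met by 5109 of the 758685 tiles present in all 3 tables, or 0.673%. The tiles were chosen by their measured levels in these libraries, so the levels and the size of the brain excess are given as a description and carry no test.

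The tiles came from enhanced reduced representation bisulphite sequencing (RRBS) of C57Bl/6J mice of 24 weeks. In RRBS, genomic DNA is cut with restriction enzymes, size selected, treated with bisulphite and sequenced. The paper does not name the enzymes used. Liver was sampled from 6 males and 6 females at the caudal end of the left lobe, brain from 3 males and 3 females as a rostral coronal section, and heart from 3 males and 3 females as an apical section. The study was designed to compare the genders within each tissue. Each deposited table names its tissue, but its columns name neither mouse nor gender, so the 12 liver, 6 brain and 6 heart libraries are compared here by tissue only and are numbered in table order. Per the paper, brain and heart came from 3 males and 3 females that also gave liver, and littermates were used. Libraries of different tissues are thus not all from separate animals. Brain library 1 stood apart from the other 5 brain libraries, with a median of 0.577 over the set against 0.679 to 0.733, and the main counts are also given without it.

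In mammals, DNA methyltransferases add a methyl group to cytosine mainly where it is followed by guanine (CpG). Most CpGs far from promoters are methylated, and active enhancers, the distal elements that bind transcription factors, commonly lose methylation in the cell types that use them. Brain also carries much hydroxymethylcytosine, which bisulphite sequencing reads as methylation, so a level here is the sum of both marks. In bulk tissue, a level between 0 and 1 averages over cell types, and a change in the share of a cell type cannot be told apart from a change of the mark within it.

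Sequences are shown first for 4 of the 5 tiles that were among the 8 with the largest brain excess and held no 31-base stretch found elsewhere in the genome, since these are the plainest cases of the pattern. The fifth of these, far from any gene, is described with the remaining tiles. All sequences are from the plus strand of mm10 (GRCm38.p6, RefSeq), 5′ to 3′, in lower case, with each CG and each GATAAG or its reverse complement CTTATC in capitals.
Galm, intron 4 of 6, chr17:80164201-80164300: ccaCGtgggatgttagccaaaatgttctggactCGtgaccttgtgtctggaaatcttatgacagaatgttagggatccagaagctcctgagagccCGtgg
Tekt3, intron 3 of 7, chr11:63074601-63074700: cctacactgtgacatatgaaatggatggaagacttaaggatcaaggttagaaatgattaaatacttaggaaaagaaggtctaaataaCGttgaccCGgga
7449 bp from the start of Gm15441, intergenic, chr3:96574201-96574300: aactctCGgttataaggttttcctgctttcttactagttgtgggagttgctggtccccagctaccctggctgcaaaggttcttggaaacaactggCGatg
1177 bp from the start of 4933440J02Rik, intergenic, chr10:111595401-111595500: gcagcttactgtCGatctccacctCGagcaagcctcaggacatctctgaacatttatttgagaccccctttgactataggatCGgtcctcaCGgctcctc
The 4 tiles held few CpGs, and none lay in a CpG island. In the Galm tile, whose gene encodes the mutarotase that interconverts galactose anomers, the 6 brain libraries lay between 0.750 and 0.933 (median 0.839), the 12 liver libraries between 0.020 and 0.141 (median 0.0625) and the 6 heart libraries between 0.062 and 0.146 (median 0.107). The means were 0.838 ± 0.0781 (SD, n = 6) in brain, 0.0737 ± 0.0360 (SD, n = 12) in liver and 0.108 ± 0.0311 (SD, n = 6) in heart. Every brain library stood far above each of the 18 others, and liver and heart overlapped.

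In the Tekt3 tile, in a gene of the tektins that line sperm flagella, brain libraries ran from 0.805 to 0.898 (median 0.857), liver libraries from 0.067 to 0.194 (median 0.138) and heart libraries from 0.078 to 0.196 (median 0.150). In the tile near Gm15441, brain libraries ran from 0.769 to 0.886 (median 0.838), liver from 0.040 to 0.155 (median 0.095) and heart from 0.096 to 0.162 (median 0.112). In the tile near 4933440J02Rik, brain libraries ran from 0.772 to 0.835 (median 0.808), liver from 0.043 to 0.169 (median 0.0855) and heart from 0.062 to 0.142 (median 0.103). In all 3 tiles the brain libraries did not overlap the others, while liver and heart covered nearly the same range.

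Of the other 4 tiles among the 8 with the largest excess, 3 lay in repeats. The tile with the largest excess, 0.786, lay 10178 bp from the start of Mbl2, a mannose-binding lectin of the complement system, at chr19:30222701-30222800, with means of 0.918 ± 0.0242 in brain (SD, n = 6), 0.0692 ± 0.0655 in liver (SD, n = 12) and 0.132 ± 0.0781 in heart (SD, n = 6). Of its 100 bases 93 were repeat-masked, and 41.4% of its 31-base stretches occurred elsewhere in the genome. Tiles in intron 2 of 10 of Smyd4 and intron 1 of 3 of Zfp970 were wholly repeat-masked, with 65.7% and 94.3% of such stretches in more than 1 place, and the part of other copies in their levels was not tested. The remaining tile, at chr15:63067101-63067200, was single-copy, held 1 CpG and lay 412458 bp from the nearest transcript start, with brain libraries from 0.733 to 0.962 (median 0.948), liver from 0 to 0.176 (median 0.0855) and heart from 0.138 to 0.304 (median 0.198). Among all 5109 tiles, 6.36% were multi-copy by this measure (at least 50% of 31-base stretches), against 11.5% in a sample of every 50th common tile.

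Over the whole set, the median level was 0.680 in brain, 0.223 in liver and 0.256 in heart. Over all common tiles the medians were 0.795, 0.808 and 0.719 in the same order, so the set lay below the median of all tiles in each tissue, and by far the most in liver and heart. The excess, the brain mean minus the higher of the liver and heart means, had a median of 0.362 and ran from 0.3, the limit set by the rule, to 0.786. It lay below 0.35 in 2192 tiles (42.9%) and reached 0.5 in 463 (9.06%).

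Most of the tiles were intermediate and not fully switched. The brain mean was between 0.5 and 0.8 in 3562 tiles (69.7%), at least 0.8 in 959 (18.8%) and under 0.5 in 588 (11.5%). Liver and heart were both under 0.2 in 1462 tiles (28.6%) and both under 0.1 in 436 (8.53%), and the higher of them was 0.4 or more in 1144 (22.4%). A brain mean of at least 0.8 with liver and heart both under 0.2 was found in 23 tiles (0.45%).

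At the edge of the rule, the tiles nearest inside had excesses that round to 0.3. They lay 32503 bp from the start of Hand1, in intron 23 of 32 of Ptprm and in intron 8 of 10 of E430016F16Rik, with brain means of 0.457 ± 0.0911, 0.455 ± 0.165 and 0.386 ± 0.0842 (SD, n = 6 each). The nearest tiles outside, in intron 1 of 6 of Loxl1, in intron 1 of 10 of Il1r1 and 68513 bp from the start of D730050B12Rik, had brain means of 0.897 ± 0.0460, 0.683 ± 0.0624 and 0.640 ± 0.0705 (SD, n = 6 each). Tiles with the same rounded excess thus lay on both sides of the limit.

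**Figure D1:**
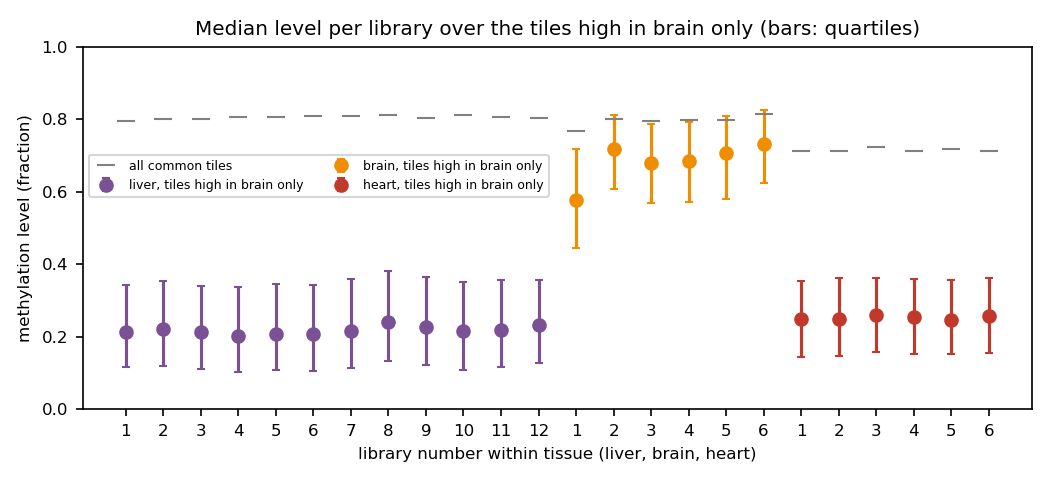
Methylation level (fraction, vertical axis) in each of the 24 libraries (horizontal axis, numbered within tissue), with points at the median and bars at the quartiles over the 5109 tiles, and grey dashes at the median over all common tiles. Brain library 1 has a median of 0.577 over the set and brain libraries 2 to 6 lie between 0.679 and 0.733, while liver and heart libraries lie between 0.203 and 0.259.

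The libraries of liver and heart were alike over the set, with medians between 0.203 and 0.241 in the 12 liver libraries and between 0.247 and 0.259 in the 6 heart libraries. Brain libraries 2 to 6 had medians of 0.717, 0.679, 0.684, 0.707 and 0.733, and brain library 1 stood apart at 0.577. Brain library 1 was the lowest brain library in 2763 tiles (54.1%). Over all common tiles its median was also the lowest in brain, at 0.769 against 0.795 to 0.815, so this was not particular to the set. Over the set, its difference from the mean of brain libraries 2 to 6 had a median of -0.110 and quartiles of -0.207 and -0.0092. It was at least 0.2 lower in 1356 tiles (26.5%) and not lower in 1145 (22.4%).

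The same library was also closer to heart than the other brain libraries in some groups of tiles of other patterns. The groups were chosen with brain libraries 2 to 6 and without library 1, which can by itself set it apart. No other brain library was left out for these groups. In the 17278 tiles low in heart only when the rule was applied without it, its median was 0.636, against 0.744 to 0.780 in brain libraries 2 to 6 and 0.334 in heart. In the 580 tiles high in heart only, it had 0.422 against 0.301 to 0.371, with 0.741 in heart. In the 13595 tiles low in liver only, it had 0.830 against 0.835 to 0.861, with 0.264 in liver and 0.806 in heart. In the 6994 tiles low in brain libraries 2 to 6 only, it had 0.512 against 0.395 to 0.440. Liver had 0.885 and heart 0.825 there, so it was closer to both. In the 8135 tiles high in liver only, its 0.290 lay within the 0.264 to 0.331 of the other brain libraries. What set this library apart was not tested. Without this library the rule gave 6201 tiles, of which 4977 were in the set of 5109.

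Since the rule used every library, each was also left out in turn and its level read in the tiles that the other 23 chose. In all but 1 case at least 99.75% of the tiles had the left-out library on the side the others gave, a brain library above the liver and heart means or a liver or heart library below the brain mean. The exception was brain library 1, with 97.05%. The full margin of 0.3 was passed in 73.7% to 82.8% of tiles for brain libraries 2 to 6, 79.1% to 88.1% for liver libraries and 83.3% to 87.1% for heart libraries, and in 34.4% for brain library 1.

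Over the set, the spread between libraries within a tissue was wider in brain than in the others, while over all common tiles the tissues were nearly alike. The median SD over the set was 0.0901 in brain, 0.0627 in liver and 0.0537 in heart, against 0.0462, 0.0445 and 0.0434 over all common tiles. The brain SD includes brain library 1 and was not computed without it. Brain also lay at another level than liver and heart in the set, and the part of the level in the spread was not tested. All 6 brain libraries lay above all 18 others in 4436 of the 5109 tiles (86.8%), where 3.03% of all common tiles did so. Without brain library 1 the count was 4882 tiles (95.6%), against 4.48% of all. By limma, with Benjamini-Hochberg adjusted p under 0.05 for brain above liver and brain above heart, 12% of all common tiles were called, and the whole set was among them. The rule used the same contrasts, so nothing is read from these shares.

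In the gene models, most tiles were intronic or intergenic, as were most common tiles. In position the set differed more from the eligible tiles, defined below, than from all common tiles. Introns held 2263 tiles (44.3%) and intergenic sequence 2285 (44.7%), with 284 in coding sequence (5.56%), 165 in promoters (3.23%) and 112 in other exons (2.19%), where a promoter is the 1000 bp before a transcript start. A second comparison was made with the 221061 eligible tiles, those with liver and heart means within 0.2 of each other and both low enough, at 0.7 or less, for brain to exceed them by 0.3. Of these, 21.9% lay in promoters, 28.5% in introns and 31.5% in intergenic sequence, and of all common tiles 7.41%, 36.2% and 42.1%. The median distance from the nearest transcript start was 24488 bp in the set, 1998 bp in eligible tiles and 20825 bp in all. Within 1000 bp of a start lay 6.32% of the set, 44.1% of eligible tiles and 14.8% of all.

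CpG density differed in the same sense. A CpG island, a stretch over 200 bp with at least 50% GC and CpGs at over 0.6 of the expected number, was touched by 75 tiles (1.47%), against 34.7% of eligible and 10.6% of all common tiles. The shores, up to 2000 bp from an island, held 7.71% of the set, 17.4% of eligible tiles and 8.06% of all. The mean number of CpGs per tile was 2.26 in the set, 5.25 in eligible tiles and 3.37 in all, and 36.8%, 20.4% and 25.1% held 1 CpG. Among eligible tiles, 4.16% of those with 1 CpG met the rule, 4.13% with 2, 3.51% with 3, 2.35% with 4, 1.25% with 5, 0.596% with 6 and 0.134% with 7 or more. The share of members thus fell with CpG number, while the median excess of the members stayed between 0.35 and 0.376 in these classes. A level from 1 CpG rests on that CpG's reads alone, and its depth is unknown.

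**Figure D2:**
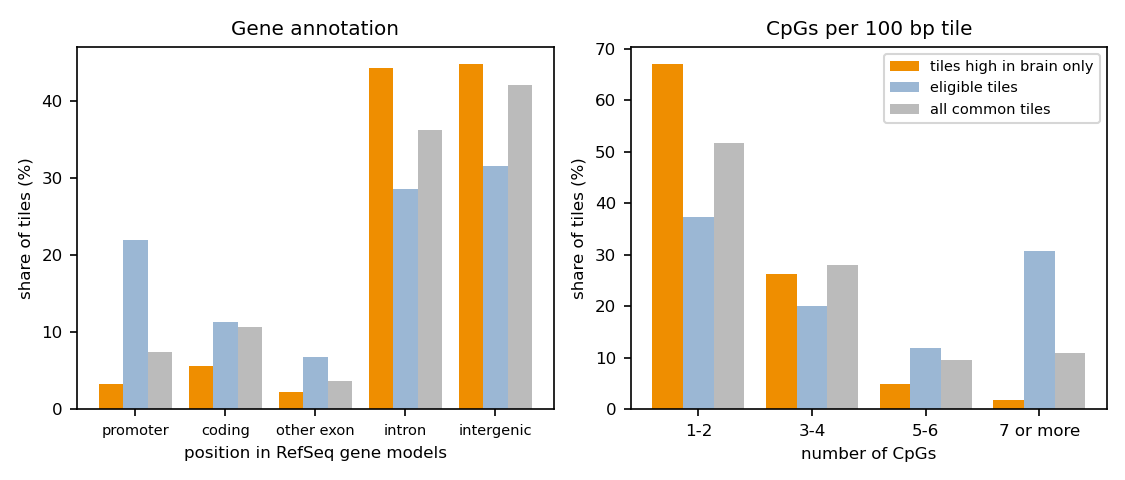
Share of tiles (%, vertical axes) by position in RefSeq gene models (left) and by number of CpGs per 100 bp tile (right), for the 5109 tiles high in brain only, the 221061 eligible tiles and all 758685 common tiles. Promoters hold 3.23% of the set and 21.9% of eligible tiles, and tiles of 7 or more CpGs 1.78% and 30.6%.

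At least 50 masked bases were found in 11.6% of the set, 11.2% of eligible tiles and 20% of all. The tiles were spread over the 19 autosomes, from 0.542% of common tiles on chromosome 18 to 0.776% on chromosome 6. They were not spread evenly within chromosomes.

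Members lay close to other members. Joined over gaps of up to 500 bp, the 5109 tiles made 4170 regions, of which 3442 held 1 tile, 581 held 2, 113 held 3 and 34 held 4 or more. Of the common tiles that directly adjoined a member, 33.0% were members, against 0.673% of all common tiles. The 2685 adjoining tiles outside the set had medians of 0.744 in brain, 0.479 in liver and 0.451 in heart. The brain mean was above both others in 90.1% of them, against 40.3% of all common tiles outside the set. Neighbouring tiles can share reads and CpGs of the same fragments, so they are not independent.

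The brain excess reached about 1000 bp. In tiles outside the set, the mean difference from liver was 0.218 at up to 100 bp, 0.178 at up to 200 bp, 0.129 at up to 300 bp, 0.0950 at up to 500 bp and 0.0454 at up to 1000 bp, and it was -0.00622 beyond 50000 bp. The difference from heart was 0.234 at up to 100 bp and 0.0772 at up to 1000 bp, and 0.0506 beyond 50000 bp. Brain thus kept a small excess over heart across the genome and none over liver.

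**Figure D3:**
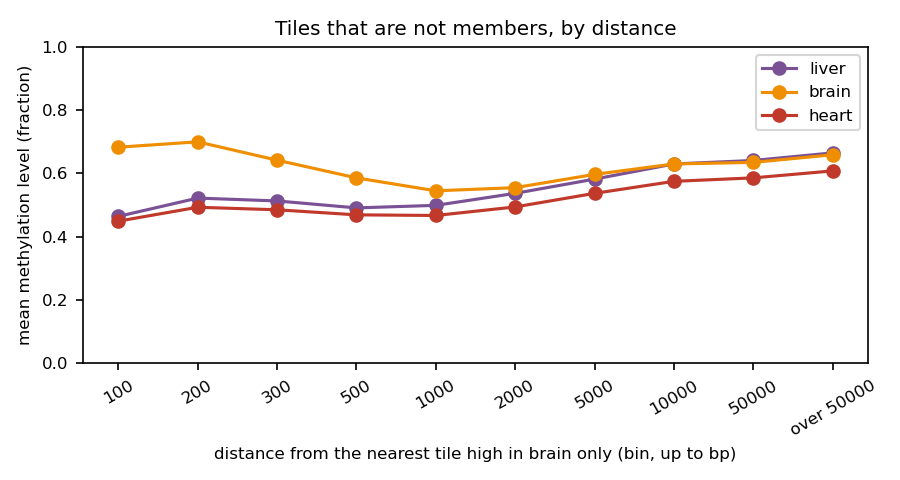
Mean methylation level (fraction, vertical axis) of common tiles outside the set, by distance from the nearest tile high in brain only (horizontal axis, bins named by their upper limit in bp), for each tissue. Brain lies 0.218 above liver at up to 100 bp, and the tissues draw together beyond 1000 bp.

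Short sequences that transcription factors are known to bind were counted on both strands of each tile. GATAAG, the core letters bound by the GATA family of zinc finger factors that act in blood, heart, liver and gut development, occurred in 716 of the 5109 tiles (14.0%), in 2.53% of eligible tiles and in 2.91% of all. To compare tiles of like CpG number, the count was repeated in tiles with 1 or 2 CpGs, where the shares were 15.1% of the set and 4% of eligible tiles. Among eligible tiles the share grew with the brain excess, from 2.27% at an excess of 0 to 0.1, 4.25% at 0.1 to 0.2 and 6.35% at 0.2 to 0.3, all outside the rule, to 10.6% at 0.3 to 0.4, 19.2% at 0.4 to 0.5 and 26.6% (123 of 463 tiles) at 0.5 or more. The motif is a match of letters and not evidence of a bound site.

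The mirror patterns of the same rule had lower shares. GATAAG was found in 0.987% of the 6279 tiles low in brain only, 1.88% of the 8507 high in liver only, 1.36% of the 516 high in heart only, 2.73% of the 13757 low in liver only and 8.20% of the 16012 low in heart only. Members with GATAAG had medians of 0.717 in brain, 0.227 in liver and 0.252 in heart with an excess of 0.397, against 0.674, 0.222, 0.256 and 0.357 without it. Intergenic sequence held 51.3% of members with the motif and 43.7% of those without.

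**Figure D4:**
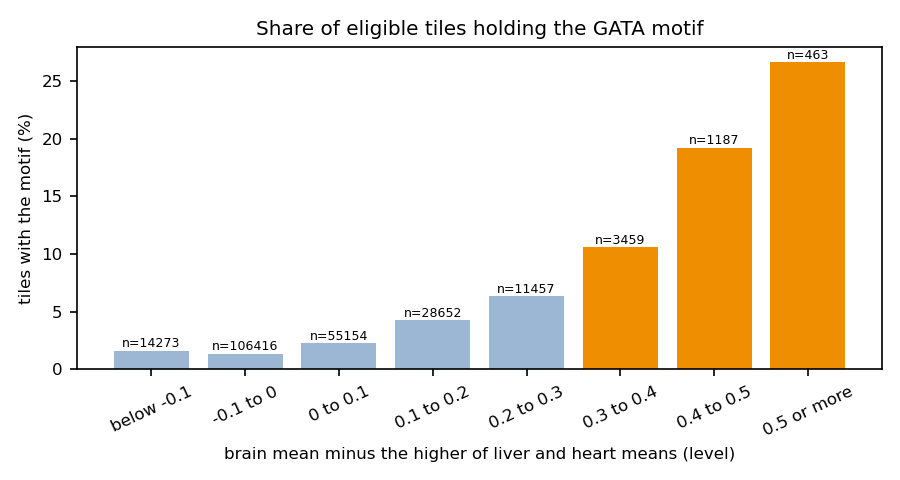
Share of eligible tiles that hold the GATA motif on either strand (%, vertical axis) by brain excess (horizontal axis, brain mean minus the higher of the liver and heart means), with the number of tiles above each bar. The orange bars are the set, at 10.6%, 19.2% and 26.6%, and the blue bars are eligible tiles outside the rule, from 1.37% to 6.35%.

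AGGTCA, the core letters bound by nuclear receptors, occurred in 623 tiles (12.2%), in 5.34% of eligible tiles and in 5.74% of all. In tiles with 1 or 2 CpGs it was in 12.6% of the set and 7.22% of eligible tiles. It was nearly as frequent in tiles low in liver only (11.6%), and was in 6.6% of those low in heart only, 6.98% of those high in heart only, 3.90% of those high in liver only and 3.62% of those low in brain only. Both it and GATAAG were in 75 tiles (1.47%). TGTTTAC, bound by forkhead factors, was in 2.43% of the set and 1.04% of eligible tiles, and TGANTCA, bound by AP-1, in 3.90% and 1.90%. GGAATG, bound by TEAD factors, was in 7.14% and 4.56%. The ETS letters CCGGAA were in 8.30% and 7.07%, the E-box CAGATG in 7.61% and 5.47%, and the E-box CAGCTG in 6.03% and 5.57%. Of all common tiles, the ETS letters were in 8.09% and these E-boxes in 7.09% and 5.38%. For these motifs the set thus lay near all common tiles. The forkhead, AP-1 and TEAD letters were in 1.05%, 2.32% and 5.08% of all. TGACGTCA, bound by CREB, was in 0.137% and 0.237%, and CCGG, a restriction site and not a factor motif, in 51.6% and 59.3%. The CREB letters were in 0.128% of all common tiles, so the set was low only beside eligible tiles. The restriction site was in 58.1% of all. In tiles with 1 or 2 CpGs the order of CCGG was the opposite, with 45.4% of the set and 35% of eligible tiles. GATAAG and AGGTCA thus showed the widest gaps in percentage points among the factor motifs counted.

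A selection of tiles that hold GATAAG, from promoters and listed genes, is shown to set the letters beside their levels. The Tnfaip8 and Lmo2 tiles named further on also hold it and are not shown.
Cela3b, promoter, chr4:137430701-137430800: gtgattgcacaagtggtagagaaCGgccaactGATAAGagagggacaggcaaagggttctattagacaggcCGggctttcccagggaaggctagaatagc
Il22ra1, promoter, chr4:135727801-135727900: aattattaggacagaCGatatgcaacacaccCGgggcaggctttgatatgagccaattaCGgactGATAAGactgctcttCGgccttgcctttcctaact
1300017J02Rik, promoter, chr9:103288301-103288400: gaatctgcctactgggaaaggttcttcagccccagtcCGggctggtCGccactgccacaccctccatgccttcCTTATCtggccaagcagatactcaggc
Ppara, intron 2 of 7, chr15:85774601-85774700: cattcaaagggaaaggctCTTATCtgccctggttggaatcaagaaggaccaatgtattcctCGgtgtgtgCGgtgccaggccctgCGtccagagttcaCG
Hnf4a, intron 6 of 10, chr2:163559501-163559600: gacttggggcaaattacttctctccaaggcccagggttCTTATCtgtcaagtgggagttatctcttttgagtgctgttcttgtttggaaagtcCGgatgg
Slc2a2, intron 8 of 10, chr3:28721901-28722000: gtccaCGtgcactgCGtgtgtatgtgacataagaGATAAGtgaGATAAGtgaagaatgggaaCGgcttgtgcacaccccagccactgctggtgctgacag
Emx1, intron 2 of 2, chr6:85194801-85194900: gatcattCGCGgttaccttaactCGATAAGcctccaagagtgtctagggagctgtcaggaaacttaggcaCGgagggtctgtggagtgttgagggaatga
The tile before Cela3b, a pancreatic elastase gene, had brain libraries from 0.889 to 0.957 (median 0.925), liver from 0 to 0.189 (median 0.0725) and heart from 0.151 to 0.407 (median 0.221). In this tile 27.1% of the 31-base stretches occurred elsewhere in the genome. The tile before Il22ra1, which encodes a subunit of the interleukin-22 receptor, had brain libraries from 0.613 to 0.768 (median 0.694), liver from 0.024 to 0.143 (median 0.060) and heart from 0.024 to 0.123 (median 0.0615). The brain libraries did not overlap the others at either promoter.

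Of the other promoter tiles with large excess, a pair of adjoining tiles lay before 1300017J02Rik. The tile shown had means of 0.745 ± 0.0823 in brain (SD, n = 6), 0.132 ± 0.0384 in liver (SD, n = 12) and 0.128 ± 0.0316 in heart (SD, n = 6), and the next, with 7 CpGs and no GATAAG, had 0.767 ± 0.116, 0.135 ± 0.0536 and 0.149 ± 0.0527. A tile 512 bp before the microRNA gene Mir5123, in intron 1 of 6 of the galactosyltransferase gene B4galt1, had 0.728 ± 0.0690 in brain, 0.0355 ± 0.0309 in liver and 0.0622 ± 0.0123 in heart. The tile before Tnfaip8, a gene induced by tumour necrosis factor, had 0.761 ± 0.0374, 0.117 ± 0.0549 and 0.103 ± 0.0434. The lowest brain mean of these 6 promoter tiles, 0.695 at Il22ra1, was well above the highest liver or heart mean, 0.233 at Cela3b in heart.

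At least 1 member lay between 1000 bp before the start and the end of 1738 of the 21184 genes with a common tile (8.2%), with 380 genes holding 2 and 257 holding 3 or more. Lists of genes of known function are described by how many of their genes held a member, beside that background. The lists were chosen with earlier results of these data known, so their shares are a description and carry no test. Long genes with many measured tiles have more chances to hold a member, so the median number of common tiles per gene (14 over all genes) and the share of a list's common tiles that were members (0.62% over all genes) are given too. Without brain library 1 the background was 1995 genes (9.42%).

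Nuclear receptors, which turn hormone and lipid signals into transcription, held members in 12 of 32 genes (37.5%), and 33 of their 1764 common tiles (1.87%) were members against 0.62% of the tiles of all genes. Their median was 29 tiles per gene. The genes were Rxra with 9 tiles, Nr1h4, Rara and Rora with 4 each, Ppara with 3, Hnf4a and Pparg with 2, and Nr5a2, Ppard, Esrrb, Nr0b2 and Nr3c2 with 1. In Ppara, the receptor that drives fatty acid breakdown, the tile shown had brain libraries from 0.897 to 0.977 (median 0.928), liver from 0.094 to 0.26 (median 0.148) and heart from 0.266 to 0.475 (median 0.329), with heart above liver in all libraries and brain far above both.

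In Hnf4a, a master factor of hepatocytes, the tile in intron 6 had brain libraries from 0.622 to 0.846 (median 0.703), liver from 0.027 to 0.25 (median 0.159) and heart from 0.121 to 0.2 (median 0.139). In Nr5a2, a liver and pancreas receptor that regulates bile acid synthesis, the tile in intron 6 of 8 at chr1:136918801-136918900 had means of 0.697 ± 0.0698 in brain, 0.103 ± 0.0537 in liver and 0.0527 ± 0.00977 in heart. In Nr1h4, the bile acid receptor, the tile in intron 1 of 9 had 0.775 ± 0.0561, 0.0323 ± 0.0240 and 0.210 ± 0.0553, with 53 masked bases. In Hnf4a and Nr5a2, genes with a liver role, the heart libraries lay within the range of the liver libraries. In Nr1h4 they did not, and the heart libraries (0.1 to 0.253) lay above all liver libraries (0 to 0.073), as they did in Ppara.

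Fatty acid oxidation genes held members in 5 of 30 (16.7%; median 15.5 tiles per gene, 1.56% of tiles). Besides Ppara they were Ppargc1b, a coactivator of mitochondrial genes, with 4 tiles, and Acadl, Ucp3 and Hadh with 1 each. The Ppargc1b tile in intron 2 of 12 had means of 0.793 ± 0.101 in brain, 0.207 ± 0.0816 in liver and 0.271 ± 0.0418 in heart. The tile 841 bp before Acadl, the long-chain acyl-CoA dehydrogenase, had 0.446 ± 0.144, 0.0357 ± 0.0415 and 0.0793 ± 0.0527, so brain was itself under 0.5 there. Ucp3, a mitochondrial uncoupling protein, had 0.730 ± 0.0763, 0.404 ± 0.109 and 0.266 ± 0.0722 in intron 5 of 6.

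Insulin and growth factor signalling held members in 10 of 30 genes (33.3%; median 41.5 tiles per gene, 1.01% of tiles). In Slc2a2, the glucose transporter of liver and pancreatic beta cells, the tile shown holds GATAAG in more than 1 place and had brain libraries from 0.525 to 0.712 (median 0.645), liver from 0.091 to 0.197 (median 0.101) and heart from 0.105 to 0.241 (median 0.199). The insulin receptor gene Insr had 0.830 ± 0.0740 in brain, 0.234 ± 0.0711 in liver and 0.418 ± 0.0494 in heart in intron 1 of 21. The kinase gene Akt1 had 0.617 ± 0.0557, 0.191 ± 0.133 and 0.0673 ± 0.0281 in intron 2 of 13. Other genes with members included Grb14, Cap2, Fgfr4, Tbc1d1, Foxo1 and Foxo3.

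Endothelial genes held members in 8 of 30 (26.7%; median 29.5 tiles per gene, 1.08% of tiles), and in 10 without brain library 1. The tile in intron 7 of 10 of Erg, an ETS factor of vessel walls, had 0.794 ± 0.0858 in brain, 0.113 ± 0.0384 in liver and 0.238 ± 0.0317 in heart. Pecam1, an adhesion molecule between endothelial cells, had 0.709 ± 0.142, 0.144 ± 0.0677 and 0.163 ± 0.0605. Lmo2, a partner of GATA factors in blood and vessels, had 0.853 ± 0.110, 0.347 ± 0.119 and 0.338 ± 0.06 in a tile that lies mostly before its transcript start and reaches into the first exon. The receptor gene Notch1 had 0.758 ± 0.0733, 0.336 ± 0.0883 and 0.354 ± 0.0706, and Egfl7, Fli1, Stab1 and Kdr also held members.

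Extracellular matrix and fibroblast genes held members in 8 of 30 (26.7%; median 31 tiles per gene, 1.28% of tiles), and in 10 without brain library 1. Collagen genes made up 5 of the 8. Col15a1 had 0.817 ± 0.0631 in brain, 0.158 ± 0.0411 in liver and 0.316 ± 0.0430 in heart, and Col4a1, a collagen of basement membranes, 0.718 ± 0.142, 0.198 ± 0.0499 and 0.244 ± 0.0304. The fibrillar collagens Col5a1 and Col3a1 had brain means of 0.675 ± 0.0343 and 0.588 ± 0.0818, and Col18a1, Fn1, Lamc1 and Mmp2 completed the list.

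Actin cytoskeleton, focal adhesion and caveola genes held members in 9 of 29 (31%; median 19 tiles per gene, 1.03% of tiles). Ehd4, an ATPase of membrane traffic, had 0.733 ± 0.0666 in brain, 0.130 ± 0.0607 in liver and 0.170 ± 0.0243 in heart. Tpm1, a tropomyosin, had 0.717 ± 0.133, 0.134 ± 0.0392 and 0.206 ± 0.0327, and the focal adhesion gene Zyx had 0.503 ± 0.0864, 0.0435 ± 0.0401 and 0.0738 ± 0.0362. Des, the intermediate filament of muscle, had 0.432 ± 0.0603, 0.0338 ± 0.0308 and 0.0263 ± 0.0241. In Des, a muscle gene, the liver libraries (0 to 0.1) covered the range of the heart libraries (0 to 0.062).

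Epithelial adhesion and keratin genes held members in 5 of 29 (17.2%; median 22 tiles per gene). Their share of tiles, 0.675%, was near the 0.62% of all genes. The genes with members were Jup, Dsp, Grhl2, Tjp3 and Cldn4, genes of desmosomes, tight junctions and an epithelial transcription factor. The Grhl2 tile in intron 1 of 15 had brain libraries from 0.635 to 0.688 (median 0.655), liver from 0.136 to 0.340 (median 0.217) and heart from 0.145 to 0.272 (median 0.258), the narrowest brain range of the listed genes shown. Jup had 0.729 ± 0.0785, 0.150 ± 0.0606 and 0.233 ± 0.0282 in brain, liver and heart, Dsp 0.556 ± 0.149, 0.104 ± 0.0815 and 0.0950 ± 0.0622, and Tjp3 0.581 ± 0.0898, 0.217 ± 0.0705 and 0.239 ± 0.0540.

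A list of GATA, T-box and HAND factors, with other factors and cofactors of mesoderm and endoderm, held members in 3 of 29 genes (10.3%; median 28 tiles per gene, 1.01% of tiles). Gata4, a factor of heart and liver development, held 3 tiles, and its tile in intron 2 of 6 had 0.774 ± 0.0989 in brain, 0.109 ± 0.0369 in liver and 0.240 ± 0.0433 in heart. Zfpm1, the GATA cofactor FOG1, held 4, with 0.512 ± 0.136, 0.0752 ± 0.0337 and 0.0977 ± 0.0363 at its best tile, and Tbx15 held 3, with 0.798 ± 0.0486, 0.411 ± 0.0954 and 0.330 ± 0.0684. Of the blood and macrophage genes, 1 of 27 held members (3.70%; median 10 tiles per gene, 0.781% of tiles), namely the blood factor Runx1 with 4 tiles, at 0.686 ± 0.168, 0.248 ± 0.0714 and 0.216 ± 0.0623. For the blood list both shares rest on this 1 gene, so nothing is read from how they lie to those of all genes.

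Genes used by brain cells were not free of members. Synapse and neuronal function genes held members in 10 of 28 (35.7%), though at a median of 52 tiles per gene, and 0.687% of their tiles were members, near the 0.62% of all genes. Rbfox1, a neuronal splicing factor, had 0.817 ± 0.0859 in brain, 0.359 ± 0.0997 in liver and 0.416 ± 0.102 in heart, and the postsynaptic scaffold genes Shank1 and Shank3 had brain means of 0.435 ± 0.0928 and 0.532 ± 0.122. The 3 tiles named lay in introns or, in Shank1, in coding exon 24 of 25.

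Neuronal transcription factors held members in 4 of 30 (13.3%; median 25.5 tiles per gene), with 0.462% of their tiles. Lhx6, a factor of cortical interneurons, had 0.703 ± 0.0789 in brain, 0.117 ± 0.0499 in liver and 0.205 ± 0.0389 in heart, and Emx1, a factor of the cortex, had brain libraries from 0.631 to 0.752 (median 0.700), liver from 0.139 to 0.436 (median 0.265) and heart from 0.278 to 0.446 (median 0.321) at the tile shown. Pax6, at coding exon 7 of 13, had 0.475 ± 0.167, 0.0618 ± 0.0358 and 0.0925 ± 0.0425, and Foxp1 had 0.543 ± 0.117, 0.135 ± 0.0505 and 0.217 ± 0.0415. Oligodendrocyte and astrocyte genes held a member in 1 of 29 (3.45%; median 17 tiles per gene, 0.138% of tiles), the astrocyte glutamate transporter Slc1a3, with 0.856 ± 0.0492, 0.274 ± 0.0394 and 0.410 ± 0.0641, and in 2 without brain library 1. Of the 39 Hox genes, which pattern the body axis, 0 held a member over 727 common tiles.

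The labelled tissues were checked at the starts of marker genes, within 1000 bp. Liver markers were lowest in liver in 7 of 7 genes with tiles there, heart markers lowest in heart in 6 of 11 and brain markers lowest in brain in 9 of 15. The brain marker starts had low medians throughout, 0.116 in liver, 0.0874 in brain and 0.0614 in heart, so their order says little about the tissue. Of the heart markers, Myh7 (0.263 in brain, 0.411 in heart) and Nppa (0.373 in brain, 0.733 in heart) were among those lowest in brain. Over whole genes, members were held by 3 of 12 liver markers (Hnf4a and Tat among them), 2 of 13 heart markers (Myh6 and Myl7) and 2 of 15 brain markers (Rbfox3 and Syt1).

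Some genes held many members. Rbpms, an RNA-binding protein gene, held 15 among its 123 common tiles, Rassf3 11 of 86, Rassf4 11 of 28, Ajm1 11 of 26 and Itpr1 10 of 153. In Rbpms the tile with the largest excess lay in intron 1 of 8 on an island shore, with brain libraries from 0.545 to 0.750 (median 0.556), liver from 0.008 to 0.146 (median 0.047) and heart from 0.007 to 0.060 (median 0.0445). Rassf3, of the Ras-association family, had 0.782 ± 0.0330 in brain, 0.119 ± 0.0333 in liver and 0.226 ± 0.0436 in heart in intron 1 of 4. Itpr1, the calcium release channel of the endoplasmic reticulum that is abundant in cerebellum, had 0.732 ± 0.0984, 0.0906 ± 0.0464 and 0.147 ± 0.0286 in intron 2 of 61.

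A few members stood out from the rest in lying in CpG islands. They are shown for their CpG density, in the same letters as before.
Dtx1, coding exon 3 of 10, chr5:120695001-120695100: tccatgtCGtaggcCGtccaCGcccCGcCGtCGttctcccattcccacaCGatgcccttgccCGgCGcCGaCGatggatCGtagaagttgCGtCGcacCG
Ajm1, coding exon 1 of 1, chr2:25578701-25578800: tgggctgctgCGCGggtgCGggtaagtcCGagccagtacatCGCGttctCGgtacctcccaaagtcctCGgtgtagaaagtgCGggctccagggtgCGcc
Disp3, coding exon 2 of 21, chr4:148271601-148271700: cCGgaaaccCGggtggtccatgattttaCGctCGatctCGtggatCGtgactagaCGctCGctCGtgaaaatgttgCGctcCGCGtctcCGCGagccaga
In the Dtx1 tile, in a ubiquitin ligase gene of Notch signalling, 15 CpGs gave brain libraries from 0.363 to 0.637 (median 0.583), liver from 0.062 to 0.118 (median 0.0855) and heart from 0.053 to 0.089 (median 0.068). The next tile had 0.620 ± 0.123 in brain, 0.142 ± 0.0466 in liver and 0.106 ± 0.0229 in heart. The island tile with the largest excess lay in coding exon 2 of 2 of Ccdc177, with 0.731 ± 0.0796, 0.223 ± 0.0513 and 0.172 ± 0.0291 over 12 CpGs. Hic1, a transcriptional repressor gene, had 0.671 ± 0.0458, 0.198 ± 0.0488 and 0.135 ± 0.0438 in its intron, 502 bp from the start. The brain means of these 4 tiles lay between 0.554 and 0.731.

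**Figure D5:**
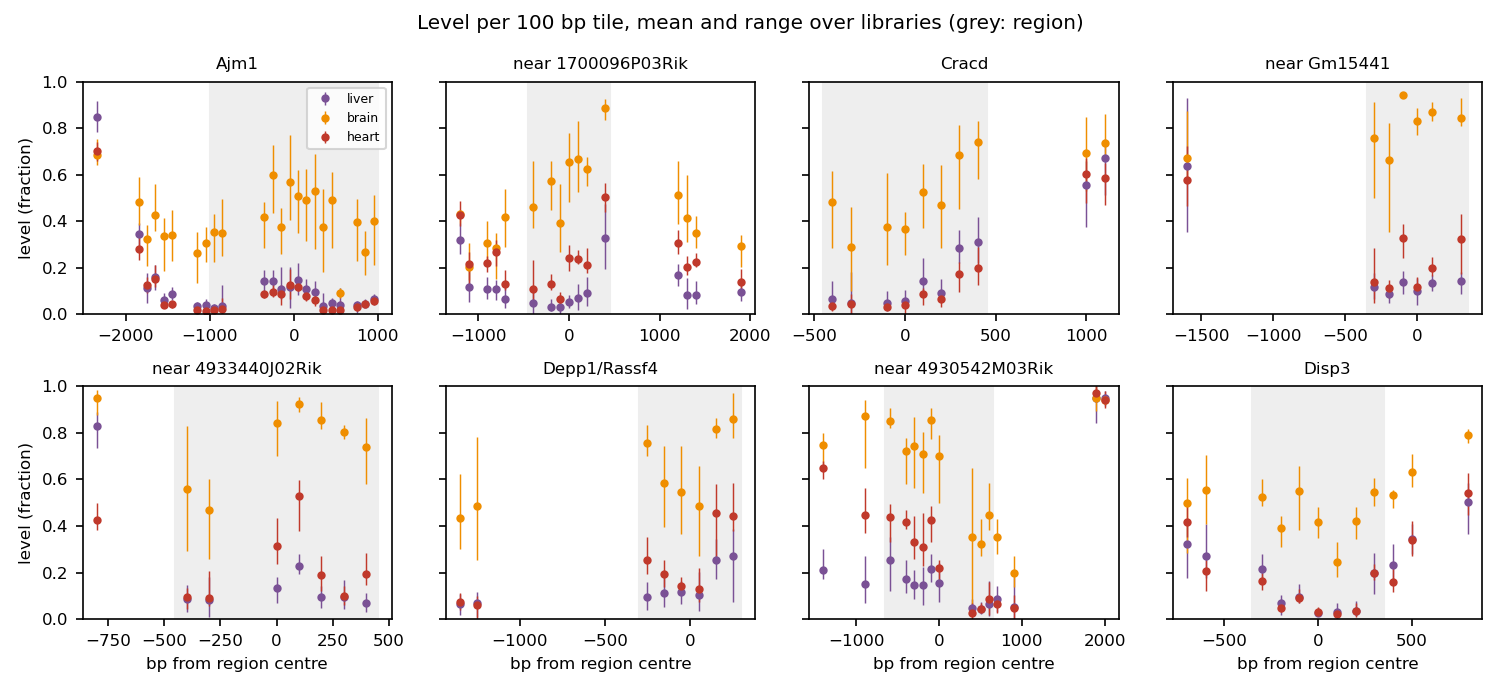
Methylation level (fraction, vertical axis) per 100 bp tile against distance from the region centre (bp, horizontal axis) in the 8 regions with the most members, with points at the mean and lines over the range of the 12 liver, 6 brain and 6 heart libraries, and the region in grey. Brain means lie above liver and heart means across each grey region, from 11 members at Ajm1 to 6 at Disp3.

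The region with the most members was the island of Ajm1, whose protein belongs to apical cell junctions, at chr2:25578001-25580000, with 11 members among 15 common tiles in its only coding exon. Over the 11 tiles, the brain means ran from 0.35 to 0.598, the liver means from 0.0288 to 0.146 and the heart means from 0.0177 to 0.125. The average over the members was 0.302 in brain library 1, 0.533, 0.529 and 0.544 in brain libraries 2 to 4, 0.354 in library 5 and 0.503 in library 6. Brain libraries 1 and 5 were thus lower, but above all liver libraries (0.0550 to 0.0964) and heart libraries (0.0490 to 0.0718).

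Islands in coding exons also held the regions of Cracd, an actin regulator gene, with 7 members at chr5:76857401-76858300, and Disp3 with 6 at chr4:148271401-148272100. At Cracd the region average was 0.348 in brain library 1 and 0.483 to 0.642 in the other brain libraries. At Disp3 it was 0.429 in brain library 1 and 0.464 to 0.511 in the others, so library 1 lay closer to the others there. The Disp3 tile shown had 0.551 ± 0.0945 in brain, 0.0955 ± 0.0204 in liver and 0.0907 ± 0.0214 in heart over 14 CpGs.

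The other 5 regions lay outside islands. At Depp1, a gene with a role in autophagy that lies within intron 3 of 10 of Rassf4 on the other strand, the region chr6:116651701-116652300 held 6 members, and all 8 common tiles of Depp1 were members. Its region average was 0.6 to 0.793 in brain, 0.117 to 0.211 in liver and 0.240 to 0.295 in heart. The region near Gm15441, chr3:96573901-96574600, held 6 members with a mean excess of 0.615, the largest of the 8 regions, and averages of 0.710 to 0.896 in brain, 0.0937 to 0.149 in liver and 0.165 to 0.244 in heart. The region near 4933440J02Rik, chr10:111594701-111595600, had 6 members and averages of 0.607 to 0.799, 0.0803 to 0.130 and 0.147 to 0.183.

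The regions near 1700096P03Rik (chr8:87660801-87661700, 7 members) and 4930542M03Rik (chr17:45885401-45886700, 6 members) had brain averages of 0.531 to 0.684 and 0.526 to 0.754, liver averages of 0.0636 to 0.121 and 0.110 to 0.185, and heart averages of 0.194 to 0.237 and 0.193 to 0.264. In all 8 regions the lowest brain library lay above the highest liver and heart library in these averages over the members. At single tiles this did not always hold. A member near 4930542M03Rik had brain libraries from 0.063 to 0.648, liver libraries up to 0.086 and heart libraries up to 0.069.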

How the data were processed

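Methylation was measured by enhanced RRBS in 24 libraries. Per the paper's methods and the labels, libraries were made and mapped to mm10 by a sequencing service, and the authors kept sites covered by more than 10 reads and summarised them in 100 bp tiles. The submitters' processing notes name Bismark and methylKit. The value the authors deposited is a methylation fraction from 0 to 1 per tile and library. No coverage accompanies it, so the depth and precision of each level are unknown. The 3 tables hold 819713 liver, 942643 brain and 930358 heart tiles on autosomes. Columns were assigned to a tissue only, since they carry running numbers without mouse or gender (some mouse numbers also carry opposite genders in liver and in the other tissues). With 0 unmapped columns, all 24 were used.

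Tissue means were taken over tiles common to the 3 tables. CpGs, motifs and masked bases were read from RefSeq GRCm38.p6, where 99.9% of tiles held a CpG, against 55.5% when moved by 100000 bp, and genes from 43783 curated transcripts. CpG islands (15611) were called on repeat-masked sequence. limma 3.58.1 (R 4.3.3) was fitted to the fractions over the 3 tissues with Benjamini-Hochberg adjustment, since the values are fractions without counts. Libraries are treated as replicates of a tissue, and the spread between them may be partly technical. Scripts were tested on simulated data. Tiles and genes named were the 8 regions with most members, the 8 tiles with the largest excess, the 6 in promoters and 5 in islands, up to 4 genes of each list, 3 tiles on each side of the margin and the 5 genes with most members. Some genes that met this rule are not reported here. The members and lists were chosen with earlier results of these data known. Alternatives varied the margin, the closeness of liver and heart, CpG number, repeats, promoter length, medians for means, the scale of the fit and each library left out. Their effect on the results is given in the closing section.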

Additional observations from a re-analysis of the deposited data

Results flagged for a closer look

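A library far from the others of its tissue was looked for in 138 groups of 6 brain or heart libraries, and 13 were found. For independent, normally distributed groups the cutoff gives about 1 in 20, or 6.9. The groups here share libraries and hold fractions of chosen tiles, so 6.9 is no chance expectation for the 13. Brain made up 7 of the 13, and brain library 1 made up 4 of these 7. Over the set, brain library 1 had the lowest median, 0.577, with the next at 0.679. At single tiles it was also the low library near 4930542M03Rik (0.498, next 0.689), in Ppargc1b (0.599, next 0.791) and in Col4a1 (0.446, next 0.717). The cause was not tested.

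Other brain libraries stood apart at 3 tiles. Library 6 was low at the distal tile whose nearest start is Gm20740 (0.733, next 0.931) and high in Hic1 (0.762, next 0.664), and library 4 was high in Nr5a2 (0.828, next 0.694).

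Heart libraries stood apart at 6 tiles. Library 4 was high before Cela3b (0.407, next 0.230) and in Ppara (0.475, next 0.330), library 2 before 1300017J02Rik (0.25, next 0.159), library 3 near 1700096P03Rik (0.172, next 0.130) and library 1 in Pax6 (0.175, next 0.090), while library 6 was low in Nr1h4 (0.1, next 0.213).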

How the results depend on the processing

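Of 51 comparisons of the main counts and shares under other settings, 32 kept a count within 1.5 times, or a share within its 95% counting interval, and 19 did not. With a margin of 0.25 there were 9123 tiles in 7436 regions, 42.1% in introns and 47.4% intergenic. With a margin of 0.4 there were 1650 tiles in 1333 regions, 46.1% in introns, 4.36% in coding sequence and 0.97% in islands. With at least 2 CpGs there were 3222 tiles in 2653 regions, 42.0% intergenic, 3.85% in promoters, 7.82% in coding sequence and 2.33% in islands. With liver and heart within 0.1 the island share was 1.99%, with promoters of 2000 bp the promoter share was 5.13%, and with under 50 masked bases 42.6% were intergenic and 6.24% in coding sequence. By construction these settings change which tiles count.

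Leaving out each library gave 4760 to 6201 tiles, the highest without brain library 1, in 3899 to 5051 regions. Shares ran from 5.13% to 5.78% in coding sequence, 44.1% to 45.2% intergenic, 43.8% to 45.2% in introns, 3.02% to 3.32% in promoters and 1.39% to 1.58% in islands, and limma called 79780 to 95818 of all common tiles. The share of members with GATAAG ran from 11.1% to 21.3% over all settings, chosen after seeing the data. For 68 named tiles, tissue medians were used or each library was left out. The excess moved by more than 1 brain SD in 3 of 1700 cases, was never below 0.247 and changed sign in 0. Leaving out 1 of 6 brain libraries cannot shift their mean by 1 SD, and the tiles were chosen for their excess. Nothing on stability is thus read from these counts. No paired analysis was possible because the columns carry no mouse or replicate number. Depth is unknown, so no error of a single level can be given.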
